A study of Mus musculus with 16 samples.

Results

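The proteasome subunit genes are the genes whose mouse symbol starts with Psma to Psmg and a digit. They were chosen by name from the probe annotation of the array platform and not by their values. Earlier results of these data were known when the rule was set. The name rule found 92 of the 28704 spots on each array, which belong to 46 genes. Of these, 45 genes, measured by 83 spots, had enough values to be tested among 14292 transcripts. They comprised 7 alpha and 10 beta subunits of the 20S core, 6 ATPases (Psmc) and 14 non-ATPase genes (Psmd) of the 19S particle, 3 activators (Psme) and 3 assembly chaperones (Psmg). The same rule also took in Psmc3ip and Psme3ip1, which encode proteins named for a proteasome partner and are not subunits. The gene left untested was Psmf1, the proteasome inhibitor, whose spot had values on the Cx43 heterozygous arrays only, from -0.17 to -0.04.

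The proteasome is the protease of the cytoplasm and nucleus that degrades proteins tagged with ubiquitin. Its 20S core is a barrel of alpha rings, which gate the entrance, around beta rings, which hold the proteolytic sites; the 19S particle caps the barrel, binds ubiquitin chains, removes them and unfolds the substrate with a ring of ATPases. In immune cells and under interferon, Psmb8 and Psmb9 take the places of the catalytic subunits Psmb5 and Psmb6 and form the immunoproteasome.

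The study compared whole brain of neonatal mice of 4 genotypes on 16 cDNA arrays with 2 colours, 4 arrays per genotype. The genotypes were wild type (C57BL/6j), heterozygous for connexin43 (Cx43 heterozygous), without connexin43 (Cx43 null) and without connexin32 (Cx32 null), the last 3 labelled C57BL. Both are gap junction proteins, Cx43 being abundant in astrocytes and Cx32 in oligodendrocytes. Each brain cDNA, labelled with Cy3, was hybridised beside a Cy5 reference, a single preparation from adult tissues of both sexes (aorta, brain, heart, kidney, liver, lung, ovary or testicles, spleen and stomach).

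All values below are log2 ratios of brain to reference, set so that the median spot of an array is 0. A ratio therefore gives the level of a gene in brain relative to its level in the pool, and ratios of different genes cannot be ranked as levels. The labels give neither the log base nor the numerator. Brain over reference was taken as likely, since the median of the neuron marker genes lay between 1.36 and 2.72 on the 16 arrays and that of genes of liver, heart, kidney and lung between -6.62 and -4.42. How many animals went into a sample is not stated in the labels, and p-values therefore speak of the spread between these samples, which may be technical. In whole tissue, fewer cells of a type and less RNA per cell cannot be told apart.

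The arrays held values for 21010 to 24819 spots each. Wild-type replicate 1 stood apart from the other arrays: its median correlation to them was 0.64, against 0.84 to 0.96 for the other 15, and its ratios had an interquartile range of 1.87, against 0.90 to 1.39. Gja1, the gene of Cx43, lay between 1.13 and 2.47 on the wild-type arrays, between -1.86 and -1.09 on the heterozygous arrays, and at -0.60, -1.71, -2.10 and -2.92 on the Cx43 null arrays. Cx43 null replicate 1 was thus above every heterozygous array for the deleted gene. No spot is named for the gene of Cx32, so that label was not checked.

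On the wild-type arrays the median of the 45 proteasome genes was 1.19, 0.56, 0.50 and 0.47 in replicates 1 to 4. The Cx43 heterozygous arrays had medians of 0.09, 0.21, 0.09 and 0.05, the Cx32 null arrays 0.35, 0.27, 0.14 and 0.07, and the Cx43 null arrays 0.49, 0.35, -0.28 and 0.28. The heterozygous and Cx32 null medians lay below every wild-type median, while Cx43 null replicate 1 overlapped wild type. The typical proteasome gene sat at the 70.3rd to 80.3rd percentile of the transcripts of a wild-type array, at the 55.1st to 62.9th of a heterozygous array and at the 30.8th of Cx43 null replicate 3, the lowest of the 16. The genotype mean was highest in wild type for 39 of the 45 genes and lowest in wild type for 0 of them, whereas over all transcripts wild type was highest for 38.5% and lowest for 37%. The spread was widest in wild type: the median SD of a proteasome gene over 4 arrays was 0.49 there, 0.28 in Cx43 null, 0.18 in Cx32 null and 0.14 in heterozygous brain, against 0.38, 0.27, 0.21 and 0.20 over all transcripts.

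**Figure D1:**
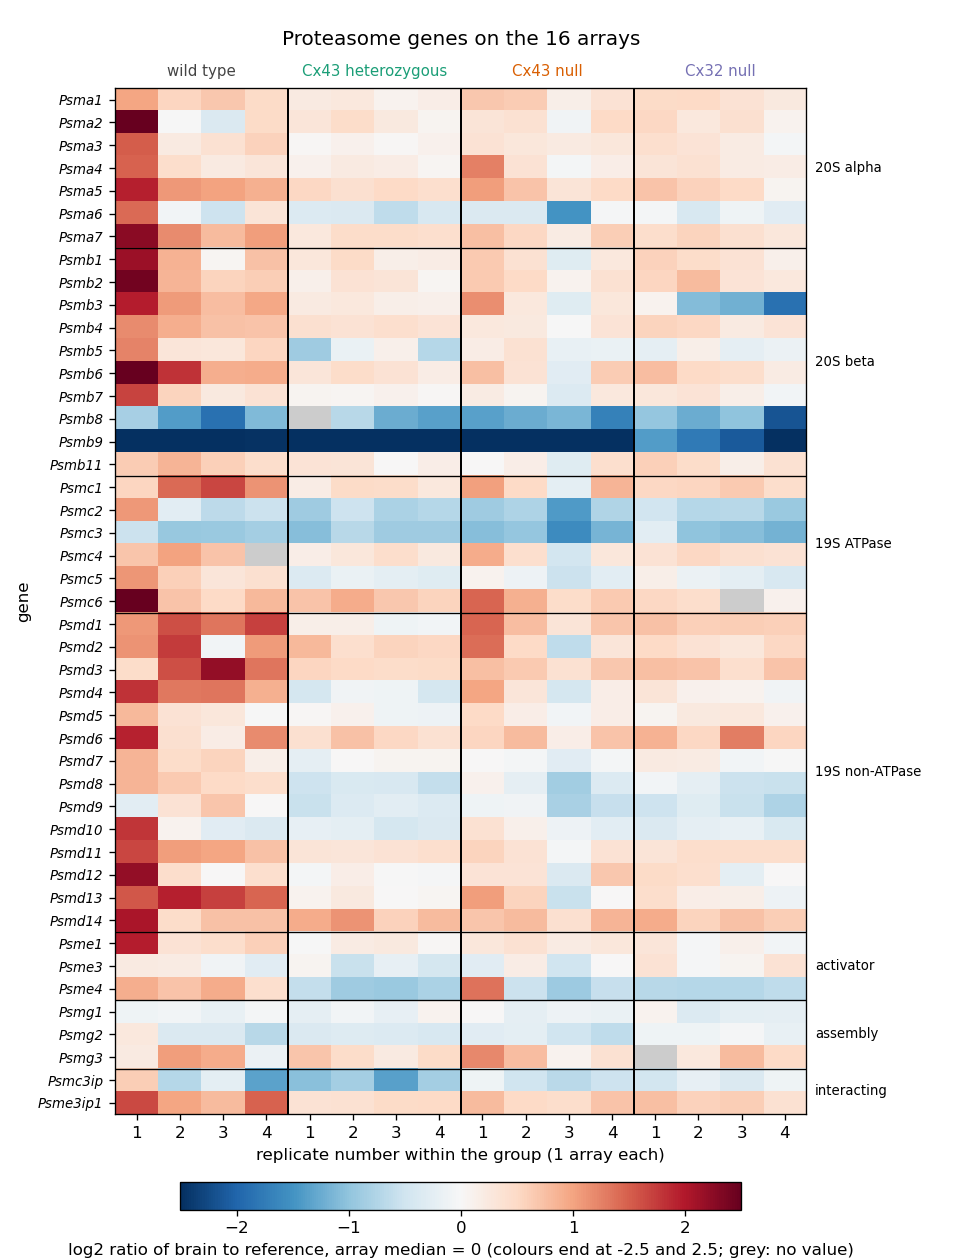
Log2 ratio of brain to reference for the 45 tested proteasome genes (rows, grouped by subcomplex) on the 16 arrays (columns, grouped by genotype), with the array median at 0. Wild-type columns are redder than the rest in most rows of the core and 19S particle, wild-type replicate 1 is the reddest, Cx43 null replicate 3 is paler or bluer than its group, and Psmb8 and Psmb9 are blue wherever they have a value.

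Each mutant line was compared with wild type in a fit over all 16 arrays, with limma, and a gene was called where its p, adjusted by Benjamini-Hochberg over the 14292 transcripts, was under 0.05. All 3 comparisons use the same 4 wild-type arrays and are therefore not independent of each other. In Cx43 null brain 11 of the 45 genes fell and 0 rose, a share of 24.4% lower, where 6.5% of all transcripts passed as lower and 4.39% as higher. In Cx43 heterozygous brain 22 fell and 0 rose, a share of 48.9% lower, where 17.6% of all transcripts passed as lower and 13.7% as higher. In Cx32 null brain 17 fell and 1 rose, a share of 37.8% lower, where 14.5% of all transcripts passed as lower and 13.3% as higher. The same shares of all transcripts belong beside every count by subcomplex, list or marker set below.

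The median difference from wild type over the 45 genes was -0.58 in Cx43 null, -0.62 in Cx43 heterozygous and -0.56 in Cx32 null brain, while the median over all transcripts was 0.01, -0.02 and -0.03. Differences were below 0 for 43, 44 and 40 of the 45 genes. The mutant arrays lay below all wild-type arrays, without overlap, for 11, 25 and 17 genes, where 6.3%, 17.5% and 14.7% of all transcripts did so. The genes that fell in all 3 lines numbered 9 (20%), those that fell in 2 lines 9, those that fell in 1 line 5 and those that fell in none 22 (48.9%). Over all transcripts 5.56% fell in all 3 lines and 79.2% in none. The 9 were the core subunits Psma7, Psmb4 and Psmb6, the ATPase Psmc5, the 19S genes Psmd4, Psmd8, Psmd11 and Psmd13, and Psme3ip1. Psme3ip1 is an average over 2 clones. AW552799 fell in each line (-0.95, -1.42 and -1.17), and AI429811 passed in none (-0.07, 0.04 and 0.09). Its call in Cx43 null brain was lost in 14 of 16 fits with 1 array left out. In Cx43 null brain, Psmd13 alone of the 11 calls was kept in all 16 fits with 1 array left out.

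Single arrays weighed on these values. Wild-type replicate 1 was the highest array of its group for 33 of the 45 genes and for 41.1% of all transcripts, and the lowest for 36.6% of all transcripts. Without wild-type replicate 1 the median differences were -0.33, -0.35 and -0.23 in Cx43 null, Cx43 heterozygous and Cx32 null brain. In that fit 10, 16 and 15 genes fell, where 4.1%, 16.3% and 12.8% of all transcripts passed as lower. Cx43 null replicate 3 was the lowest of its group for 41 of the 45 genes and for 32% of all transcripts. Without Cx43 null replicate 3, 1 gene fell in Cx43 null brain, where 0.553% of all transcripts passed as lower. Without Cx43 null replicate 1, the highest of its group for 28 genes and for 31.6% of all transcripts, 17 genes fell, where 10.2% of all transcripts did. In a fit of the 4 Cx43 null and 4 wild-type arrays alone, limma passed 0 of the 45 genes and 0% of all transcripts, with 15 genes at an unadjusted p under 0.05. How many of all transcripts met that unadjusted cut was not counted, so the 15 have no share beside them. The same kind of fit passed 13 genes as lower in heterozygous and 7 in Cx32 null brain, where 12.6% and 8.36% of all transcripts passed as lower. With the deposited values left without centring, the heterozygous count was 12, where 12.8% of all transcripts passed as lower, and the median difference over all transcripts was then 0.15.

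**Figure D2:**
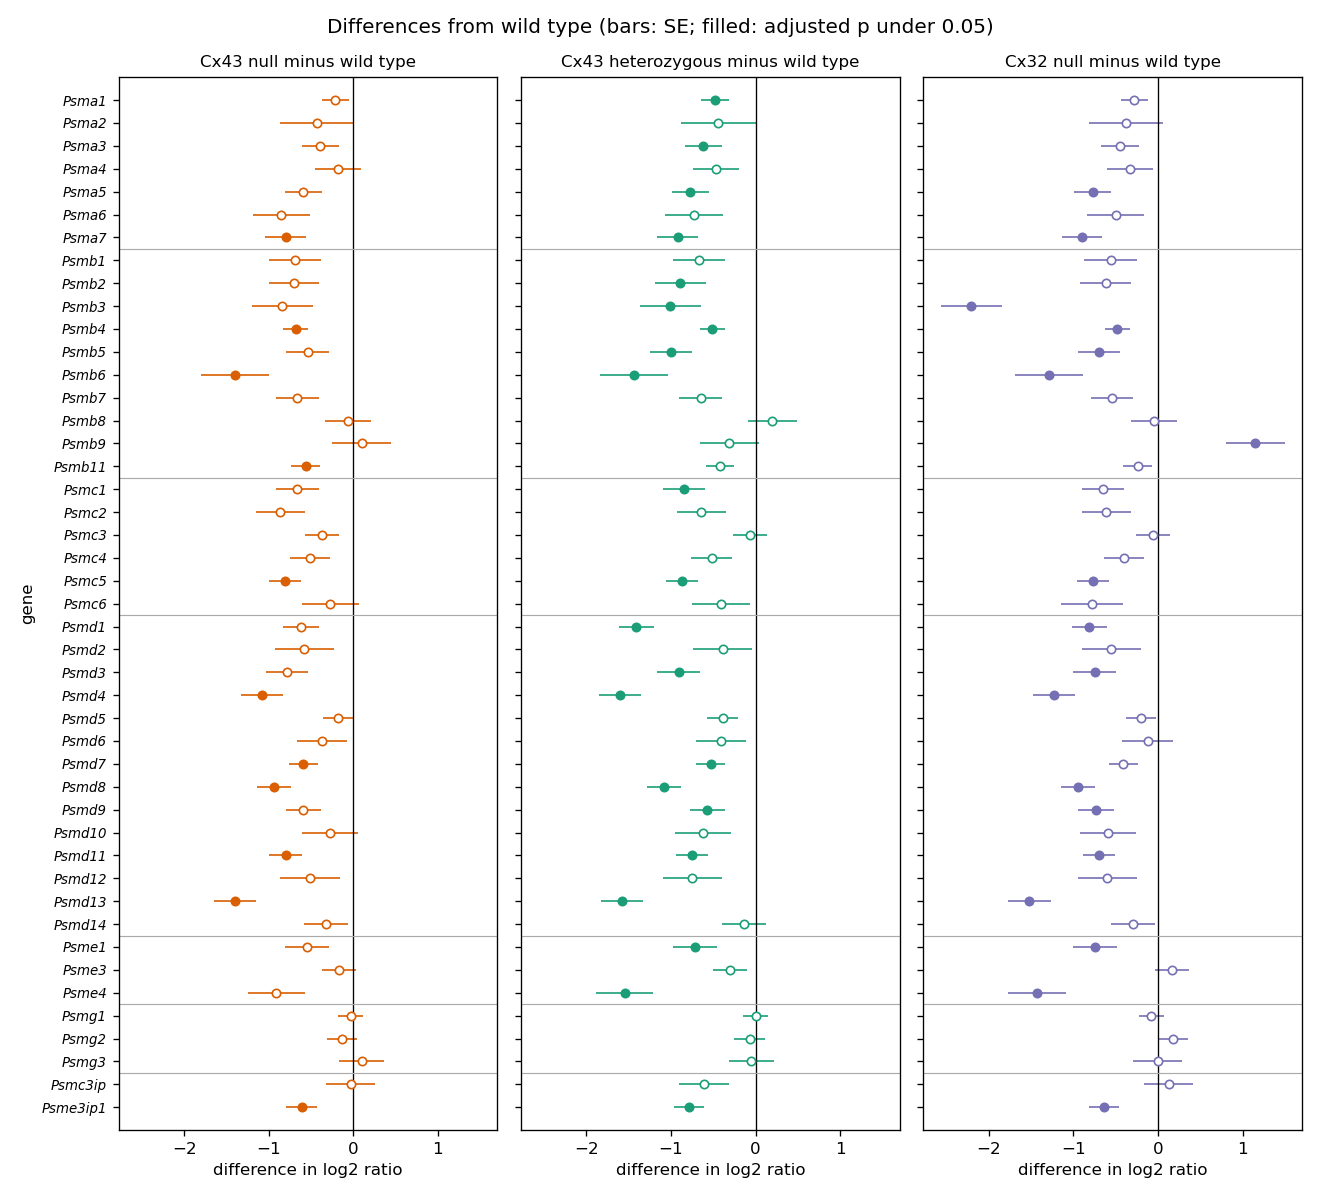
Difference in log2 ratio from wild type for each of the 45 genes in the 3 mutant lines, with the standard error of the fit as a bar; filled points passed at an adjusted p under 0.05. Most points lie left of 0 in all 3 panels, the assembly genes, averaged over clones of opposite sign, lie around 0, and Psmb9 in Cx32 null brain is the only filled point on the right.

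RefSeq start sites on GRCm38.p6 gave a window of 250 bases upstream for 38 of the 45 genes. The antioxidant response element core, searched as TGACNNNGC on both strands, was in 5 of the 38 (13.2%; Psmb5, Psmb6, Psmc6, Psmd9 and Psmd12), against 11.5% of the windows of 27025 genes. CCAAT, on both strands, was in 16 (42.1%), against 37.5% of all. The interferon-gamma type element, searched as TTCNNNGAA, was in 2 (5.26%; Psmb8 and Psmg1), against 8.13% of all. Of the 38 genes, 20 fell in at least 1 line and 18 did not: the antioxidant core was in 3 and 2 of them, CCAAT in 8 and 8, and TTCNNNGAA in 0 and 2. A match describes the letters and is not evidence of a site in use. Windows are shown for the catalytic pair Psmb6 and Psmb5, the ubiquitin receptor Psmd4 and the inducible Psmb9, written 5′ to 3′ on the strand of the gene and ending just before its start, with the match in capitals. In Psmb6 (chr11:70525107-70525356, plus strand) the core lies 9 to 1 bases before the start, and in Psmb5 (chr14:54617996-54618245, minus strand) 47 to 39 bases before it. In Psmd4 (chr3:95042615-95042864, minus strand) a CCAAT on the opposite strand, read as ATTGG, lies 95 to 91 bases before the start, and in Psmb9 (chr17:34187331-34187580, minus strand) 8 to 4 bases before it.
Psmb6: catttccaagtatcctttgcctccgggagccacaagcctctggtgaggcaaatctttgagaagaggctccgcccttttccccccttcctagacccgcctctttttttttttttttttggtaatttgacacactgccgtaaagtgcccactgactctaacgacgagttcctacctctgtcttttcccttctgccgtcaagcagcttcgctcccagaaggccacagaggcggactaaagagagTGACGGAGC
Psmb5: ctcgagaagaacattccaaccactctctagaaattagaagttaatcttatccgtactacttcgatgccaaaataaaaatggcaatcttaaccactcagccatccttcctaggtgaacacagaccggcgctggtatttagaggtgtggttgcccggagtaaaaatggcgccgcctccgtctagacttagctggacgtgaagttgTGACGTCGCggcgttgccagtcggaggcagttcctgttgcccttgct
Psmd4: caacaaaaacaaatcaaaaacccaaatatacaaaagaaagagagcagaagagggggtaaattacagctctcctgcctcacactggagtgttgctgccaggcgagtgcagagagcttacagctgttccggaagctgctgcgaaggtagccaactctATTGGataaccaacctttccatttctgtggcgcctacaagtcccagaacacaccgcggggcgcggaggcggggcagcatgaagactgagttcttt
Psmb9: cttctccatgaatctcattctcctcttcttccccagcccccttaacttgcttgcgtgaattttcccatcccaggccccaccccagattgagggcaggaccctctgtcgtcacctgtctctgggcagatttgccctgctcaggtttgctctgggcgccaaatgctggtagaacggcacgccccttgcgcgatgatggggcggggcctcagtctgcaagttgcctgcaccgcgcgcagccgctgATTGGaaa

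The alpha subunits form the outer rings of the core. All 7 had a mean below wild type in each line, with median differences of -0.43, -0.62 and -0.45 in Cx43 null, Cx43 heterozygous and Cx32 null brain, of which 1, 4 and 2 passed. Of all transcripts 6.5%, 17.6% and 14.5% passed as lower. These means are over clones, and those of Psma1 and Psma4 had opposite signs in all 3 lines. The highest clone stood at 0.37, 0.33 and 0.36 for Psma1 and at 0.24, 0.25 and 0.32 for Psma4. Psma7, an outer-ring subunit, was at 2.25, 1.18, 0.80 and 1.05 in wild type, at 0.27, 0.45, 0.45 and 0.42 in Cx43 heterozygous, at 0.75, 0.51, 0.21 and 0.62 in Cx43 null and at 0.43, 0.55, 0.40 and 0.29 in Cx32 null brain. Every mutant array was below the lowest wild-type array. These are averages over 3 clones: AW536335 and AU019007 passed in each line, and AA098608 passed in none (-0.26, -0.18 and -0.27). The differences of the average were -0.80 ± 0.24 (SE, n = 4 and 4, limma adjusted p = 0.0421), -0.92 ± 0.24 (adjusted p = 0.00833) and -0.90 ± 0.24 (adjusted p = 0.0111). In Cx43 null brain the call did not hold when any of 13 of the 16 arrays was left out, and without wild-type replicate 1 the difference was -0.48. Psma5, of the same ring, fell in Cx43 heterozygous and Cx32 null brain, with a difference of -0.77 ± 0.22 in each, and stood at -0.59 ± 0.22 in Cx43 null brain without passing. Both calls were lost with values required on all 16 arrays (limma adjusted p = 0.0672 and 0.0613) and with the clone that has the most values (0.0726 and 0.0673), and that in Cx32 null brain also without Cx32 null replicate 4 (0.0661).

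Of the 10 beta subunits 3, 5 and 4 fell in Cx43 null, Cx43 heterozygous and Cx32 null brain and 0, 0 and 1 rose, with median differences of -0.67, -0.66 and -0.55. Of all transcripts 6.5%, 17.6% and 14.5% passed as lower and 4.39%, 13.7% and 13.3% as higher. Psmb6, with the caspase-like site and the antioxidant core next to its start, was at 3.44, 1.80, 0.91 and 0.92 in wild type, at 0.30, 0.46, 0.37 and 0.19 in Cx43 heterozygous, at 0.75, 0.37, -0.29 and 0.64 in Cx43 null and at 0.78, 0.50, 0.43 and 0.21 in Cx32 null brain. No mutant array reached the lowest wild-type array, and the wild-type arrays themselves ranged over more than the difference. Psmb6 fell, with differences of -1.40 ± 0.40 (adjusted p = 0.0365), -1.44 ± 0.40 (adjusted p = 0.0125) and -1.29 ± 0.40 (adjusted p = 0.0251) in the 3 lines, or 2.64-fold, 2.70-fold and 2.44-fold lower if the values are log2. Without wild-type replicate 1 the differences were -0.84, -0.88 and -0.73, and that in Cx43 null brain did not pass (adjusted p = 0.0549). It also did not pass without wild-type replicate 2 or without Cx43 null replicate 2, 3 or 4, nor did that in Cx32 null brain without wild-type replicate 2 or Cx32 null replicate 2, 3 or 4.

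Psmb5, with the chymotrypsin-like site, was at 1.24, 0.31, 0.29 and 0.53 in wild type, at -0.89, -0.17, 0.13 and -0.71 in Cx43 heterozygous, at 0.18, 0.38, -0.18 and -0.17 in Cx43 null and at -0.22, 0.15, -0.22 and -0.14 in Cx32 null brain. It fell in heterozygous brain, with a difference of -1.0 ± 0.25 (adjusted p = 0.00645), and in Cx32 null brain, with one of -0.70 ± 0.25 (adjusted p = 0.0425), and the Cx43 null arrays overlapped wild type (-0.54 ± 0.25, adjusted p = 0.145). The call in Cx32 null brain did not hold without wild-type replicate 1 or 4 or without any of the 4 Cx32 null arrays. Psmb7, with the trypsin-like site, passed in no line, with differences of -0.66, -0.65 and -0.54 and a 95% interval for Cx43 null brain of -1.19 to -0.13. Among the structural beta subunits, Psmb4 fell in all 3 lines (-0.68, -0.51 and -0.48), but not in Cx43 null brain without Cx43 null replicate 3 (limma adjusted p = 0.0658) and not in Cx32 null brain in 4 of 16 fits with 1 array left out, those without replicate 1 or 2 of wild type or 3 or 4 of Cx32 null. Psmb2 fell in heterozygous brain (-0.89), with wild-type replicate 1 at 2.41 and the other wild-type arrays at 0.56 to 0.84. Without that array the difference was -0.46 and did not pass (limma adjusted p = 0.0588), and it also did not pass without heterozygous replicate 1, 3 or 4. Psmb11, a thymus form of the catalytic subunit, fell in Cx43 null brain (-0.56), a call that did not hold in 14 of 16 fits with 1 array left out.

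The inducible subunits gave another picture. Psmb8 was at -0.83, -1.40, -1.86 and -1.11 in wild type, at -0.70, -1.24 and -1.36 in Cx43 heterozygous (replicate 1 had no value), at -1.35, -1.25, -1.14 and -1.69 in Cx43 null and at -0.96, -1.25, -1.0 and -2.15 in Cx32 null brain. Its groups overlapped throughout, and the differences from wild type were -0.06 (95% interval -0.63 to 0.52), 0.20 (-0.43 to 0.82) and -0.05 (-0.62 to 0.53). Psmb9 was at -2.83, -2.89, -4.35 and -2.47 in wild type, at -3.87, -3.02, -3.78 and -3.11 in Cx43 heterozygous, at -3.15, -3.07, -3.25 and -2.66 in Cx43 null and at -1.40, -1.76, -2.09 and -2.72 in Cx32 null brain. All 16 arrays showed less Psmb9 than the adult pool, which includes spleen, and 3 of the 4 Cx32 null arrays were above every other array. Psmb9 rose by 1.15 ± 0.35 in Cx32 null brain (adjusted p = 0.0232), although Cx32 null replicate 4 overlapped wild type. Without wild-type replicate 3, the lowest of the 16, the difference was 0.74 and did not pass (adjusted p = 0.062), and it also did not pass without Cx32 null replicate 1 or 2 or in a fit of the 8 arrays alone.

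Genes of antigen processing and the interferon response, listed from general knowledge, were read beside the immunoproteasome pair. Of 8 measured, 0 changed in Cx43 null, 1 rose and 1 fell in Cx43 heterozygous and 2 fell in Cx32 null brain (limma). Of all transcripts 6.5%, 17.6% and 14.5% passed as lower and 4.39%, 13.7% and 13.3% as higher in these lines. Tap1, a peptide transporter gene whose start lies 226 bases from that of Psmb9 on the opposite strand, rose by 0.84 ± 0.23 in heterozygous brain (adjusted p = 0.0122), where Psmb9 did not pass (-0.31 ± 0.35). In Cx32 null brain Tap1 was at -1.34, -1.18, -0.76 and -1.91 and in wild type at -1.59, -1.17, -1.19 and -0.59, so the groups overlapped. Irf8, a transcription factor of microglia and other myeloid cells, fell in heterozygous (-0.83) and Cx32 null brain (-1.03), and Calr, a chaperone of the endoplasmic reticulum, fell in Cx32 null brain (-1.04).

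In the 19S particle the 6 ATPases, which unfold substrates, had median differences of -0.58, -0.58 and -0.63, of which 1, 2 and 1 passed in Cx43 null, Cx43 heterozygous and Cx32 null brain. Of all transcripts 6.5%, 17.6% and 14.5% passed as lower. Psmc5 was at 1.11, 0.59, 0.31 and 0.40 in wild type, at -0.35, -0.16, -0.25 and -0.31 in Cx43 heterozygous, at 0.09, -0.13, -0.54 and -0.26 in Cx43 null and at 0.15, -0.14, -0.25 and -0.41 in Cx32 null brain. In this average over 4 spots, the 12 mutant arrays all lay below the 4 wild-type arrays. Psmc5 fell, with differences of -0.81 ± 0.19 (adjusted p = 0.0207), -0.87 ± 0.19 (adjusted p = 0.00368) and -0.77 ± 0.19 (adjusted p = 0.00924). Its clone C78877 gave -1.65, -1.54 and -1.38, and clone AA064154 gave -0.20, -0.15 and -0.22 and passed in no line. The 2 spots of clone AW542410 lay between them. The call in Cx43 null brain did not hold without Cx43 null replicate 3 or in the 8 arrays alone. It was also lost with values on all 16 arrays (limma adjusted p = 0.0871) and with the spot that has the most values (0.0653). Psmc1 fell in heterozygous brain (-0.85, adjusted p = 0.0188) and stood at -0.66 and -0.65 in Cx43 null and Cx32 null brain without passing, and it did not pass between any lines. The heterozygous call did not hold without wild-type replicate 2 or 3. Psmc3 averaged -0.07 and -0.06 in heterozygous and Cx32 null brain over a pair of clones that went opposite ways, AI326148 at 0.54 and 0.33 and AW536706 at -0.68 and -0.45, with neither past the threshold.

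The 14 non-ATPase genes of the 19S particle, which include the ubiquitin receptors, the lid and its deubiquitinase, had median differences of -0.59, -0.68 and -0.65, and all 14 had means below wild type in each line. Of them 5, 8 and 7 fell, where 6.5%, 17.6% and 14.5% of all transcripts passed as lower. The means hide clones of opposite sign for Psmd2, Psmd7 and Psmd14 in heterozygous and Cx32 null brain, and for Psmd5 in Cx43 null and Cx32 null brain. Psmd7 fell in Cx43 null and heterozygous brain, where its clone C79872 alone passed (-1.31 and -1.40). Psmd4, a receptor for ubiquitin chains, was at 1.81, 1.32, 1.33 and 0.88 in wild type, at -0.43, -0.09, -0.10 and -0.44 in Cx43 heterozygous, at 0.98, 0.31, -0.43 and 0.16 in Cx43 null and at 0.33, 0.11, 0.09 and -0.09 in Cx32 null brain. Cx43 null replicate 1 overlapped wild type and the other 11 mutant arrays did not. Psmd4 fell, with differences of -1.08 ± 0.25 (adjusted p = 0.0181), -1.60 ± 0.25 (adjusted p = 0.000369) and -1.23 ± 0.25 (adjusted p = 0.00296), or 2.11-fold, 3.03-fold and 2.34-fold lower if the values are log2. Its call in Cx43 null brain did not hold without Cx43 null replicate 3.

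Psmd13, a subunit of the lid, was at 1.56, 1.95, 1.71 and 1.46 in wild type, at 0.09, 0.24, 0.00 and 0.04 in Cx43 heterozygous, at 1.05, 0.56, -0.55 and 0.01 in Cx43 null and at 0.44, 0.16, 0.14 and -0.12 in Cx32 null brain. Wild-type replicate 1 did not stand out for this gene, and no mutant array reached the wild-type range. It fell, with differences of -1.40 ± 0.25 (adjusted p = 0.00875), -1.58 ± 0.25 (adjusted p = 0.000471) and -1.52 ± 0.25 (adjusted p = 0.00112). Psmd8, also of the lid, fell in each line (-0.94 ± 0.20, -1.08 ± 0.20 and -0.95 ± 0.20), as did Psmd11, another lid gene, on average over its 3 clones (-0.80, -0.75 and -0.70). Its clones AW546071 (-1.15, -1.17 and -1.03) and AA465980 (-1.17, -1.22 and -1.22) passed in each line, and clone AA027549 did not (-0.20, 0.01 and 0.03). In Cx43 null brain the calls of Psmd8 and Psmd11 did not hold without Cx43 null replicate 3. Psmd14, the deubiquitinase, passed in no line: wild-type replicate 1 was at 2.05, the other wild-type arrays at 0.46 to 0.74, and the mutant arrays between 0.41 and 1.13. Its clones went opposite ways in heterozygous brain (0.52 and -0.79), neither past the threshold. Among the chaperones that assemble the 19S base, Psmd9 fell in Cx32 null brain (-0.73), a call lost in 3 of 16 fits with 1 array left out (without wild-type replicate 2 or 3 or Cx32 null replicate 4). In heterozygous brain it lay at the threshold (-0.57, limma adjusted p = 0.05 after rounding) and was lost in 12 of the 16, and Psmd5 and Psmd10 passed in no line.

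**Figure D3:**
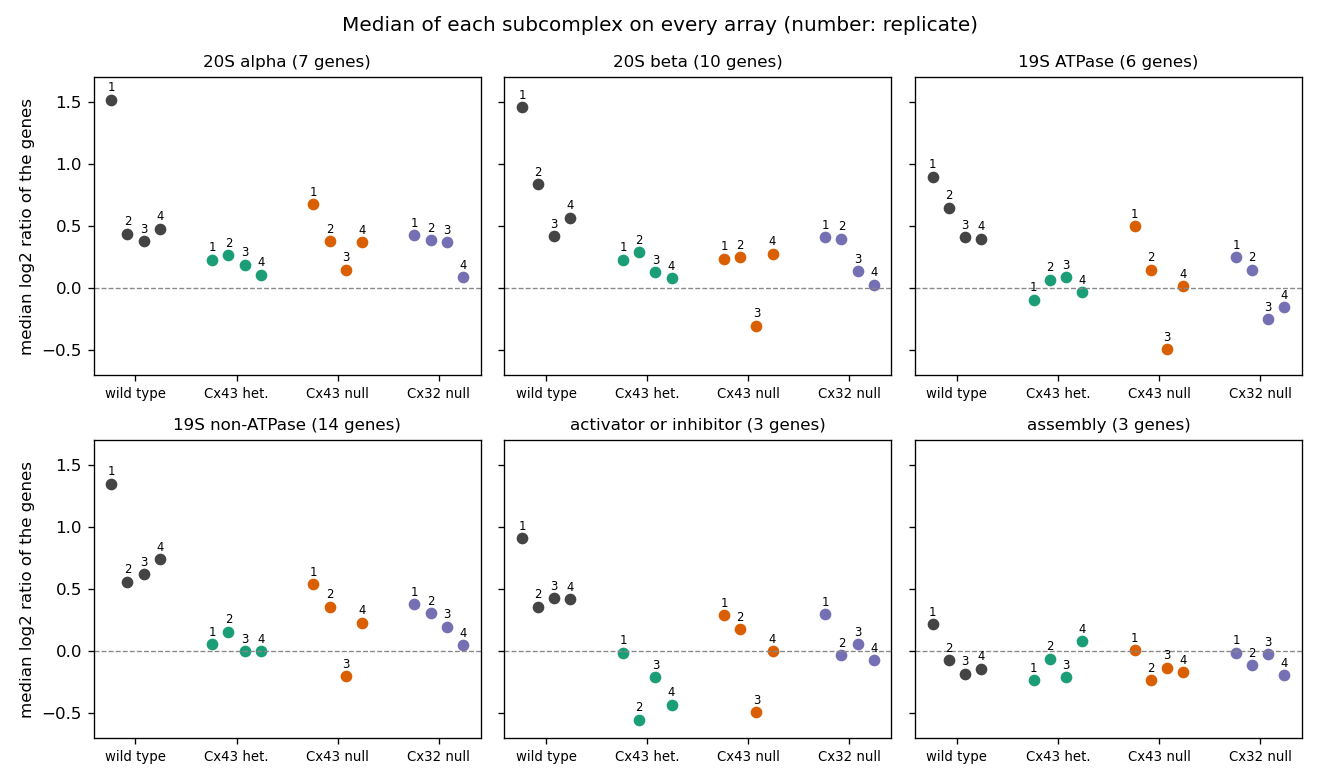
Median log2 ratio over the genes of each subcomplex on every array, 1 point per array, numbered by replicate, with the array median at 0 as a dashed line. Wild-type replicate 1 is the highest point of every panel, and all mutant arrays lie below all wild-type arrays for the beta, 19S non-ATPase and activator genes; for the 3 assembly chaperones, averaged over clones that disagree, the 4 genotypes overlap between -0.23 and 0.22.

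Of the activators, which open the core in place of the 19S cap, 0, 2 and 2 of 3 fell in Cx43 null, Cx43 heterozygous and Cx32 null brain (limma). Of all transcripts 6.5%, 17.6% and 14.5% passed as lower. Psme4, the large single-chain activator, was at 0.91, 0.71, 0.93 and 0.42 in wild type, at -0.59, -0.88, -0.93 and -0.80 in Cx43 heterozygous, at 1.36, -0.54, -0.91 and -0.57 in Cx43 null and at -0.69, -0.71, -0.71 and -0.63 in Cx32 null brain. Cx43 null replicate 1 lay above every wild-type array and the other 11 mutant arrays below all of them. Psme4 fell in heterozygous (-1.55 ± 0.34, adjusted p = 0.00319) and Cx32 null brain (-1.43 ± 0.34, adjusted p = 0.00636) and did not pass in Cx43 null brain (-0.91 ± 0.34). Psme1, a subunit of the interferon-inducible activator, fell in heterozygous and Cx32 null brain (-0.72 and -0.75). Wild-type replicate 1 was at 1.97 for Psme1 against 0.36 to 0.59 in the others, and without it the differences were -0.34 and -0.37 and neither passed (adjusted p = 0.0821 and 0.0641). Of the 16 fits with 1 array left out, 13 lost the heterozygous call and 8 the Cx32 null call. Psme3, a nuclear activator, passed in no line.

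The assembly chaperones Psmg1, Psmg2 and Psmg3, which build the alpha ring, had median differences of -0.03, -0.05 and 0, and 0 of 3 passed in each line (limma). These are averages over clones that did not go the same way: the 2 clones of Psmg1 and those of Psmg3 had opposite signs in all 3 lines, and those of Psmg2 in heterozygous and Cx32 null brain. For Psmg1, clone AW552102 was at 0.84, 0.48, 0.47 and 0.40 in wild type and at 0.20, -0.61, -0.32 and -0.40 in Cx32 null brain, while clone AA275781 was at -1.07, -0.63, -0.83 and -0.49 in wild type and at -0.03, -0.07, -0.16 and -0.04 in Cx32 null brain. The groups did not overlap for either clone, the first being lower and the second higher. Tested alone, AW552102 fell in heterozygous (-0.63, limma adjusted p = 0.0399) and Cx32 null brain (-0.83, adjusted p = 0.0116), and AA275781 rose there (0.62, adjusted p = 0.0147, and 0.68, adjusted p = 0.0104). No direction can be given for Psmg1. For Psmg2 and Psmg3 no clone passed in any line. Proteasome-associated factors outside the Psm names, listed from general knowledge, gave 0 calls of 8 measured in each line, with median differences of -0.16, -0.09 and -0.13. Among them Pomp, which matures the beta rings, stood at -0.37, -0.43 and -0.46. Whether the assembly genes differ from the subunits was not tested.

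Between the mutant lines few differences passed. Cx43 null against Cx43 heterozygous gave 0 of 45 genes, where 1.46% of all transcripts passed, with 1 gene at an unadjusted p under 0.05, and Cx43 null against Cx32 null gave 0, where 0.084% passed, with 2 genes at an unadjusted p under 0.05. The medians of these differences were 0.13 and -0.01. How many of all transcripts had an unadjusted p under 0.05 was not counted. Cx43 heterozygous against Cx32 null gave 1 gene, where 1.28% of all transcripts passed: Psmb9 was lower in heterozygous brain, with a difference of -1.46 ± 0.35 (adjusted p = 0.048), and no heterozygous array reached the Cx32 null range. That call did not hold in 12 of the 16 fits with 1 array left out, in which the difference ran from -1.70 to -1.26. Tap1 went the opposite way in the same comparison, by 1.00 ± 0.23 (adjusted p = 0.0383). Without regard to the threshold, the groups did not overlap for 3 genes higher in Cx43 null than in heterozygous brain, where 7.17% of all transcripts did so, and for 5 genes lower and 2 higher in heterozygous than in Cx32 null brain, where 8.66% and 5.44% did so. Psmd1 was among the 3 and the 5 and Psmb3 among the 2, and both rest on spots that disagree.

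Of the 45 genes, 28 were measured by more than 1 spot, and these did not always give the same answer. The range between the spots of a gene exceeded 1 on the log2 scale in 5 genes for Cx43 null, 13 for Cx43 heterozygous and 11 for Cx32 null brain against wild type. All spots of a gene had the same sign in 21, 16 and 14 of the 28, and in the others at least 1 spot went the opposite way. Psmb3, a structural beta subunit, fell in Cx32 null brain (-2.21 ± 0.36, adjusted p = 0.000926) and in heterozygous brain (-1.01 ± 0.36, adjusted p = 0.0403), the latter a call that 7 of 16 fits with 1 array left out did not keep. Its clone C76949 was at -2.30, -2.63 and -3.87 in Cx32 null replicates 2 to 4, with no value in replicate 1, against 0.59 to 2.31 in wild type, while clone AA108678 was at 0.50, 0.14, 0.23 and 0.12 against 0.96 to 1.62. Tested alone, the clones gave differences of -4.16 and -0.91, both past the threshold, so the direction was shared and the size was not. The average on Cx32 null replicate 1 rests on AA108678 alone and was 0.09, while the lowest array of that group was at -1.87. The -2.21 therefore mixes arrays with different sets of clones.

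Psmd1, a large scaffold of the 19S base, fell in Cx43 heterozygous (-1.41 ± 0.21, adjusted p = 0.000273) and Cx32 null brain (-0.81 ± 0.21, adjusted p = 0.00988). Clone AW537625 was at 3.03, 2.56 and 3.13 in wild-type replicates 2 to 4, with no value in replicate 1, and between -0.82 and -0.25 in heterozygous brain, a difference of -3.46. Clone AW543515 gave -1.03 in the same comparison and clone AA034761 gave -0.06, with values near 0 in all groups. Spots that repeat a clone, which exist for Psmc1, Psmc2 and Psmc5, differed by a median of 0.23, 0.33 and 0.12 between spots on an array. The largest such ranges were 0.90, 0.76 and 0.65. They are ranges of ratios on an array and not of differences from wild type, so the sizes cannot be compared directly. The 2 kinds of disagreement were not tested against each other. Tested spot by spot, 21, 33 and 31 of the 83 proteasome spots fell in Cx43 null, Cx43 heterozygous and Cx32 null brain, where 7.31%, 19.1% and 15.9% of all spots passed as lower. In the same tests 0, 1 and 2 proteasome spots rose, where 4.43%, 13.8% and 13.7% of all spots passed as higher: clone AA275781 of Psmg1 in heterozygous and Cx32 null brain, and the spot of Psmb9 in Cx32 null brain.

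**Figure D4:**
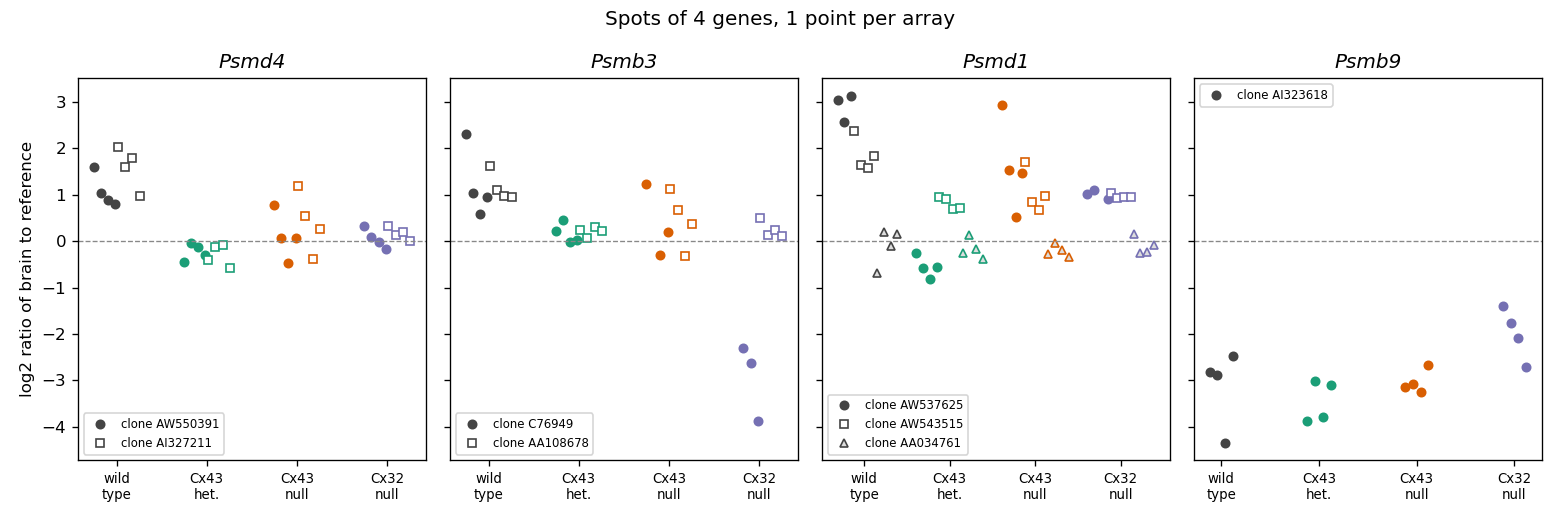
Log2 ratio of brain to reference for every spot of Psmd4, Psmb3, Psmd1 and Psmb9, 1 point per array, grouped by genotype, with a symbol per cDNA clone. The clones of Psmd4 go the same way, with AI327211 above AW550391 on every wild-type array. Clone C76949 of Psmb3 drops below -2 in Cx32 null brain alone, clones of Psmd1 spread from about 3 to below 0, and the Psmb9 points of Cx32 null brain lie mostly above the rest.

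The factors that bring substrates to the proteasome were read from a list of shuttles and of the segregase that extracts ubiquitinated proteins. Of 9 measured, 2, 5 and 4 fell and 0 rose in Cx43 null, Cx43 heterozygous and Cx32 null brain. Of all transcripts 6.5%, 17.6% and 14.5% passed as lower and 4.39%, 13.7% and 13.3% as higher. Vcp, the segregase ATPase, was at 1.66, 2.15, 2.65 and 2.23 in wild type, at 0.23, 0.31, 0.37 and 0.53 in Cx43 heterozygous, at 1.95, 1.33, 0.50 and 0.64 in Cx43 null and at 0.85, 0.92, 0.60 and 0.87 in Cx32 null brain. It fell in the 3 lines (-1.07, -1.81 and -1.36), with Cx43 null replicate 1 again inside the wild-type range. Ubqln4, a ubiquitin shuttle, fell in all 3 lines (-1.14, -1.15 and -0.99), and Rad23b, another, in heterozygous and Cx32 null brain (-0.99 and -0.94). Of the ubiquitin and activating-enzyme genes, 1 of 6 was measured, Uba6, and it passed in no line (0.05, 0.08 and -0.08).

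Regulators of proteasome gene transcription include Nfe2l1, which binds antioxidant response elements, and the NF-Y subunits, which bind CCAAT boxes. Of 7 measured, 0, 3 and 2 fell and 0 rose in Cx43 null, Cx43 heterozygous and Cx32 null brain. Of all transcripts 6.5%, 17.6% and 14.5% passed as lower and 4.39%, 13.7% and 13.3% as higher. Nfe2l1 itself did not pass, with differences of 0.36, 0.21 and 0.35. Nfe2l2, a relative that responds to oxidative stress, fell in heterozygous (-1.32) and Cx32 null brain (-0.76), as did its repressor Keap1 (-1.68 and -1.19), and the NF-Y subunit Nfyb fell in heterozygous brain (-0.79).

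Marker genes of other cell types were read on the same arrays, since their share in a whole brain can differ between samples. Of 8 listed microglial genes 3 were measured, and C1qa (-1.35, -1.90 and -1.76) and C1qb (-0.97, -1.22 and -1.03) fell in Cx43 null, Cx43 heterozygous and Cx32 null brain, while Tyrobp, the third, rose in heterozygous brain (0.70). Per array, the median of the microglial list was between -0.79 and -0.23 in wild type, between -1.89 and -0.85 in Cx43 null, between -1.81 and -1.46 in heterozygous and between -1.81 and -0.93 in Cx32 null brain. Of 9 red cell genes 3 were measured, with list medians of -1.55 to -0.39 in wild type and -2.76 to -1.14 on the mutant arrays, and Alas2 and Slc4a1 fell in heterozygous and Cx32 null brain. Of 15 neuronal genes 7 were measured, and their list median ran from 1.93 to 2.36 in wild type, from 1.56 to 2.72 in Cx43 null, from 1.36 to 1.96 in heterozygous and from 1.38 to 1.59 in Cx32 null brain. Syt1 fell in heterozygous (-1.20) and Cx32 null brain (-1.02), and Nefm rose in heterozygous brain (0.65). Of 14 genes of liver, heart, kidney and lung 7 were measured, with list medians of -4.80 to -4.42 in wild type and -6.62 to -4.45 on the mutant arrays, and 2, 3 and 2 of the 7 genes fell and 0 rose (limma) in Cx43 null, Cx43 heterozygous and Cx32 null brain. Of 8 genes of meninges and choroid plexus 5 were measured, with list medians of 0.39 to 1.34 in wild type and -0.37 to 0.51 on the mutant arrays, and Ptgds and Dcn fell in all 3 lines while Igf2 rose in heterozygous brain (0.71). Of 10 astrocyte and radial glia genes 4 were measured, with list medians of 0.34 to 2.63 in wild type and 0.44 to 1.05 on the mutant arrays, and in heterozygous brain Fabp7 rose (0.81) and Glul fell (-0.53). Of 8 oligodendrocyte genes Mbp alone was measured, between -2.14 and -0.94 in wild type and between -2.77 and -1.67 on the mutant arrays, and it fell in heterozygous (-0.84) and Cx32 null brain (-0.73). The part of these cell types in the lower proteasome ratios was not tested.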

How the data were processed

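Each of the 16 samples has 1 value per spot, deposited by the authors as a log ratio and read here as log2; the log base, the normalization within an array, the scanner software and the reason for empty cells are not given in the sources used here. If the values are natural logarithms, folds are larger and directions and p-values stay. No intensities, backgrounds or flags were used, so the number of arrays limits the precision. For wild-type replicate 3 the brain channel's label carries number 2, and the title was followed. For wild-type replicates 3 and 4 only the reference's dye is labelled, and the Cx32 null titles leave out the age, which the descriptions give.

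Gene symbols came from the platform annotation, updated through the gene identifier: 18511 spots had 1 symbol (244 of these from the platform symbol alone), 937 several and 9256 none. Arrays were centred on their median (-0.13 to 0.28 as deposited). Spots needed values on at least 3 of 4 arrays of each group, which left 19951. The spots of a gene were set to their own mean over groups and then averaged with equal weight. A missing spot then does not shift an array by the level of that spot. It still shifts the array where the clones of a gene differ in their change between groups, as for Psmb3 in Cx32 null and Psmd1 in wild-type brain. Spots without a single symbol were each tested alone. Group means of all 16 arrays were fitted in R 4.3.3 with limma 3.58.1 (lmFit, eBayes, 2-sided) and the 6 differences between groups tested. The script was checked on simulated data. Promoter windows came from the RefSeq table of GRCm38.p6.

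The named genes were, per subcomplex and line, up to 3 called genes with the largest difference, plus Psmb5 to Psmb9, every gene called between lines, and up to 2 called genes in each direction of the related lists. Other genes named in the text, among them Psmd1's and Psmb3's clones, Psmb2, Psmc3, Psmd5, Psmd9, Psmd11, Psmd14, Psmg1 and the uncalled genes of related lists, were chosen after their values were seen. The members, lists and rules were chosen with earlier results of these data known. Alternatives covered scaling, the filter, the choice of spot, the arrays in the fit, the replicate block, array weights, variance moderation and spots in stretches of the table where 1 array fell out of step with the rest. Leaving out 2 arrays together, a plain mean of spots and the test spot by spot were added after seeing the data.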

Additional observations from a re-analysis of the deposited data

Results flagged for a closer look

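In 107 groups of 4 arrays examined, 7 had 1 array far from the other 3; chance alone flags about 1 in 20 groups. Wild-type replicate 1 was the high array in 4 of them: the median of all 45 proteasome genes was 1.19 against 0.47 to 0.56 in the other wild-type arrays, that of the alpha subunits 1.52 against 0.38 to 0.48, that of the activators 0.91 against 0.36 to 0.43, and Psme1 1.97 against 0.36 to 0.59. Cx43 null replicate 1 was high for Psme4, at 1.36 against -0.91 to -0.54 in its group. Cx43 null replicate 3 was low for the median of the beta subunits, at -0.30 against 0.24 to 0.28. For Psmd1, Cx32 null replicate 1 was at 0.73 against 0.59 to 0.61, a small gap in a tight group.

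Psmb9 differed between Cx43 heterozygous and Cx32 null brain by -1.46 in a test of that difference (limma adjusted p = 0.048, n = 4 and 4), lower in all 4 heterozygous arrays than in any Cx32 null array.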

How the results depend on the processing

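No call changed direction in any alternative run. Of the 34 calls of named genes, 826 of 982 alternative fits kept them and 156 did not; 13 held in all of them, namely Psma7, Psmb5, Psmc5, Psmd1, Psmd4, Psmd13 and Psme4 in heterozygous and Psmb3, Psmc5, Psmd4, Psmd8, Psmd13 and Psme4 in Cx32 null brain. The count of 11 in Cx43 null brain, where 6.5% of all transcripts passed as lower, became 7 with values on all 16 arrays (7.2%). It became 0 in the 8 arrays alone (0%) and 20 with array weights (14.7%). With 1 array left out it ran from 1 (0.553%) to 17 (10.2%). It was 6 without replicate 2 of wild type (2.44%) or of Cx43 null (2.71%) and 7 without Cx43 null replicate 4 (2.84%). The count of 22 in heterozygous brain, where 17.6% passed as lower, became 12 without centring (12.8%) and 13 in the 8 arrays alone (12.6%). In Cx32 null brain 14.5% passed as lower and 13.3% as higher. The count of 18 there became 7 in the 8 arrays alone (8.36% and 6.31%). With 1 array left out it ran from 10 to 19. The 10 came without Cx32 null replicate 4 (10.1% and 9.62%), the 19 without Cx43 null replicate 3 (14.8% and 14.1%). The median differences ran from -0.73 to -0.35 in heterozygous and from -0.74 to -0.23 in Cx32 null brain with 1 array left out, and were -0.35 and -0.23 without both wild-type replicate 1 and Cx43 null replicate 1. Between lines, the 0 genes of Cx43 null against heterozygous became 1 with quantile normalization, 5 with array weights and 0 to 1 with 1 array left out; the 0 of Cx43 null against Cx32 null became 2 with array weights. The 1 gene of heterozygous against Cx32 null became 0 with quantile normalization or values on all 16 arrays (5 and 3 at an unadjusted p under 0.05 in limma), 3 in the 8 arrays alone or without both arrays named above, 4 with array weights and 0 to 1 with 1 array left out. For these fits between lines the share of all transcripts, adjusted or not, is not given here. The counts therefore do not single out the proteasome genes. The causes were not tested. With the replicate number as a block the count of heterozygous against Cx32 null was 2. The counts against wild type were then 12, 22 and 18, where 7.48%, 18.1% and 14.9% of all transcripts passed as lower. As higher, 4.16%, 13.4% and 12.7% passed. Deviations of same-numbered arrays correlated at -0.26 to 0.23. That shows no strong effect shared by a number and does not settle whether the samples were paired. Without centring, the calls over all transcripts in heterozygous brain were 1825 lower and 3075 higher, in place of 2519 and 1962; those of Cx43 null against heterozygous were 170 and 46, in place of 98 and 110, with a median of -0.13.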
